A study of Mus musculus with 6 samples.

Results

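Enterocytes absorb dietary fat and export it to the lymph, and 10 genes of this route were examined in crypts of WT and Mtg16-/- mice. The genes were listed by name from their known roles, but with earlier results of these data known, so they are not an unselected list. Looked up by symbol in the deposited expression table, all 10 were found among 24736 gene symbols. They are the apolipoprotein genes Apoa1, Apoa4, Apob, Apoc2 and Apoc3, the lipid transfer protein gene Mttp, the fatty acid-binding protein genes Fabp1 and Fabp2, the fatty acid receptor gene Cd36, and Dgat1, an enzyme of triglyceride synthesis.

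The study compared WT and Mtg16-/- intestines to learn what the transcriptional co-repressor MTG16 does as stem cells leave their niche at the crypt base and early progenitors choose a fate. Crypts of the full length of the gut were released with cold EDTA from males aged 12 weeks, 3 per genotype, and RNA depleted of ribosomal RNA was sequenced with 1 library per mouse. The WT mice carried no engineered allele according to the labels, and no mouse received a drug. The labels describe the knockout as made by CRISPR, whereas the study's methods describe Mtg16-/- mice received from another laboratory, and this difference was not resolved. Neither source restricts the knockout to the epithelium. Mouse strains were not given in the labels.

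In the absorptive cell, fatty acids and monoglycerides taken up from the gut lumen are bound by fatty acid-binding proteins and carried to the endoplasmic reticulum, where they are joined again into triglyceride. The microsomal triglyceride transfer protein, encoded by Mttp, loads this lipid onto apolipoprotein B to form the core of a chylomicron, and apolipoproteins A-I, A-IV, C-II and C-III join its surface. These genes are known as features of mature enterocytes, which lie on the villus and are not the main cell of a crypt.

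Levels are given as TPM, an estimate of transcript abundance scaled by gene length and to the same total in every library. The deposited values hold no counts of reads, and the depth of a library cannot be read from them. Differences are log2 fold changes of Mtg16-/- against WT on log2(TPM + 1), which understates the change of low genes, with limma's moderated test and Benjamini-Hochberg adjustment over 12268 genes, those whose TPM averaged 1 or more. A gene was called at an adjusted p under 0.1. The targeted gene itself did not separate the genotypes in this table. Cbfa2t3, which encodes MTG16, was measured at 3.67, 6.69 and 4.52 TPM in WT and at 4.62, 6.43 and 3.23 TPM in libraries with the knockout label, with a log2 fold change of -0.06 (SE 0.27, limma adjusted p = 0.937). Within this table, the direction of every difference therefore rests on the labels. WT replicate 1 stood apart from the other WT libraries, with the highest TPM of the 6 libraries for all 10 lipid genes and for 27 of 28 enterocyte genes outside lipid handling. Values without it are given beside those of the 10 genes and with the medians of gene lists in the text. Lists described only by sums or single genes have none.

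All 10 genes had a lower mean in Mtg16-/- than in WT crypts, and none passed the test. The largest differences were those of Apoc2, Fabp1 and Apoa4, whose WT means were 5.03, 4.24 and 3.99 times their Mtg16-/- means. The smallest were those of Dgat1 and Cd36, at 1.38 and 1.46 times. For 5 genes, namely Apoa4, Apoc2, Apoc3, Mttp and Fabp1, every Mtg16-/- library was below every WT library, where 11.1% of all tested genes showed such lower groups and 9.94% such higher groups. A log2 fold change of -1 or lower was found for 7 of the 10 and for 1.81% of all tested genes, and without WT replicate 1 for 3 of the 10, Apoc2, Fabp1 and Apoa4, and for 0.884%. With limma, 0 of the 10 were called, beside 0.0326% of all tested genes (4 of 12268), of which 0.0163% were lower, and 6 of the 10 had an unadjusted p under 0.05, where 8.05% of all tested genes had one and were lower. The median log2 fold change was -1.18 over the 10 genes and -0.03 over all tested genes. Without WT replicate 1, 9 of the 10 were still lower, their median was -0.76, and only Apoc2 was called, beside 0.229% of genes called lower in that fit. The number lower without overlap was then 5, beside 16.9% of all genes. In whole crypts, fewer cells of a type and less RNA per cell cannot be told apart.

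**Figure D1:**
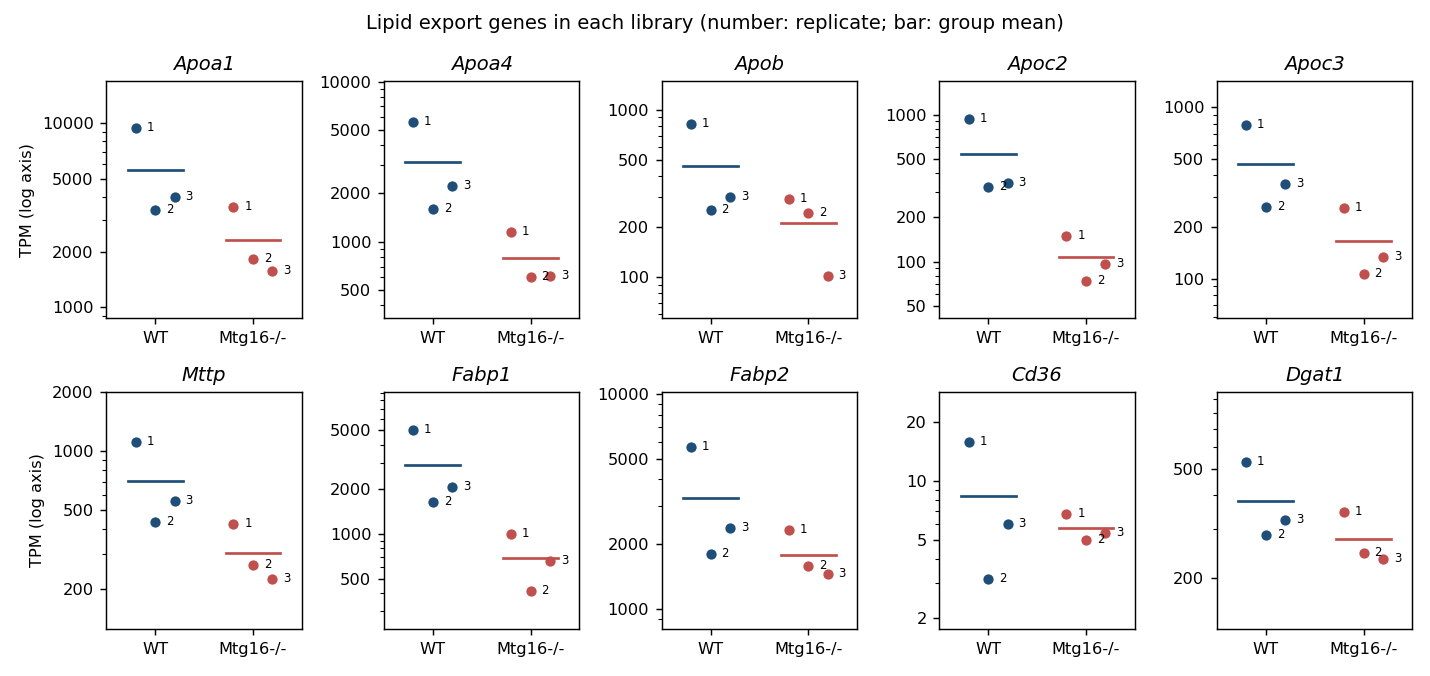
TPM of each of the 10 lipid genes (vertical log axis, a separate range per gene) in the 3 WT (blue) and 3 Mtg16-/- (red) libraries, where each point is a library with its replicate number and the bar is the group mean. WT replicate 1 is the highest point in all 10 panels, and the groups do not overlap for Apoa4, Apoc2, Apoc3, Mttp and Fabp1.

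Promoter sequences are shown for the pairs Apoa1 with Apoa4 and Fabp1 with Fabp2, because the genes of each pair have related products and differed by unequal amounts between the genotypes. Each line gives the 250 bases before the gene's start, 5' to 3', from RefSeq on GRCm38.p6. Capitals mark TTTATGG, a CDX motif, written CCATAAA where it lies on the other strand, the E-box CAGCTG, and the TATA motif TATAAA. The TATA motif was added to the search after the sequences had been read.
Apoa1 (chr9:46228380-46228629, plus strand): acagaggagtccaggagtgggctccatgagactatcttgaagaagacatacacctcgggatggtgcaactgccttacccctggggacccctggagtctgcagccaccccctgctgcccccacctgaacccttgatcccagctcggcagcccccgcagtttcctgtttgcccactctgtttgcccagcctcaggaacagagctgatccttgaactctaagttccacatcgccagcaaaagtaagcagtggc
Apoa4 (chr9:46240594-46240843, plus strand): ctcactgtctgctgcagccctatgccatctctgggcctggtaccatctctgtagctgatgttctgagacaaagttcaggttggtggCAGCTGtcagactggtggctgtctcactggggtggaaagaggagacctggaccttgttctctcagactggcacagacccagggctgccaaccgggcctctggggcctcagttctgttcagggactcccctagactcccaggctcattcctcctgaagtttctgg
Fabp1 (chr6:71199629-71199878, plus strand): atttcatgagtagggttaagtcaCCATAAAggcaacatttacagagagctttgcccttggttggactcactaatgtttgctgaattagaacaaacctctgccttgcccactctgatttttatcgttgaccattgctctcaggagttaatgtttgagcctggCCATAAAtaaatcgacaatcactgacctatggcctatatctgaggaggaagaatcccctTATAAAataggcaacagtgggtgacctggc
Fabp2 (chr3:122894822-122895071, plus strand): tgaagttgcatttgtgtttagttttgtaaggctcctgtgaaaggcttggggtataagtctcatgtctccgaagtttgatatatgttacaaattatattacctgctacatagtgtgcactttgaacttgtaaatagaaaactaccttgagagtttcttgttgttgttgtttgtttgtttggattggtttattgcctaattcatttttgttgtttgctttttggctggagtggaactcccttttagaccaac

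The Fabp1 window held the CDX motif at 2 places, starting 227 and 89 bases before the start, and a TATA motif 30 bases before it. The Fabp2 window held none of the 3 marked motifs, and its GC content was 35.6% against 42.8% for Fabp1. The Apoa4 window held CAGCTG 164 bases before the start, and the Apoa1 window held none of the marked motifs, at a GC content of 57.6% and 58%. A window was found for 8 of the 10 genes. Both strands were searched in these 8 and in 32851 windows of the same length. TTTATGG lay in 1 of the 8 and in 2.43% of all windows, CAGCTG in 1 and in 13%, and TATAAA in 2, Fabp1 and Apob, and in 12.4%. The general E-box CANNTG, which includes CAGCTG and is not otherwise marked, lay in 5 of the 8 and in 66.2% of all windows. Within the pairs shown, it lay 185 and 131 bases before the start of Apoa1, 164 before Apoa4 and 242 before Fabp2. The HNF4 motif CAAAGTCCA, the direct repeat 1 motif, which holds AGGTCA at both ends with 1 free base between, and the GATA motif AGATAA lay in 0 of the 8, and in 0.384%, 0.0335% and 9.99% of all windows. A match is a description of these letters only.

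Apoa1, which encodes the main protein of high-density lipoprotein and is also secreted on chylomicrons, lies on chromosome 9 from 46228630 to 46230469 (GRCm38). Its TPM was 9429.97, 3399 and 3975 in WT and 3522, 1841 and 1569.96 in Mtg16-/- libraries. The groups overlapped, because Mtg16-/- replicate 1 was above WT replicate 2. The mean was 5602 ± 3328 in WT and 2311 ± 1058 in Mtg16-/- (SD, n = 3 each), with a log2 fold change of -1.21 (SE 0.45, limma adjusted p = 0.305). The log2 fold change was -0.76 without WT replicate 1. Apoa1 was the gene with the highest level of the 10 in both genotypes, at rank 8 among the tested genes by WT mean and rank 45 by Mtg16-/- mean.

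Apoa4 encodes apolipoprotein A-IV, which the small intestine secretes on chylomicrons after a fatty meal, and lies close to Apoa1, from 46240844 to 46243458 on chromosome 9. Its TPM was 5596, 1606 and 2212 in WT and 1151, 599 and 608 in Mtg16-/- libraries. All Mtg16-/- libraries were below all WT libraries. The mean was 3138 ± 2150 in WT and 786 ± 316 in Mtg16-/- (SD, n = 3 each), with a log2 fold change of -1.85 (SE 0.47, limma adjusted p = 0.247), and -1.33 without WT replicate 1. By mean level Apoa4 stood at rank 18 of the tested genes in WT and 187 in Mtg16-/-.

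Apoc3 encodes apolipoprotein C-III, an inhibitor of the clearance of triglyceride-rich particles, and lies between Apoa1 and Apoa4, from 46233050 to 46235636. Its TPM was 789.69, 264 and 355 in WT and 257, 106 and 134 in Mtg16-/- libraries. The groups did not overlap, although Mtg16-/- replicate 1 came close to WT replicate 2. The log2 fold change was -1.44 (SE 0.44, limma adjusted p = 0.272), and -0.99 without WT replicate 1.

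Apoc2 encodes apolipoprotein C-II, the cofactor that activates lipoprotein lipase, and lies on chromosome 7 from 19671579 to 19677941. Its TPM was 942, 324.5 and 345 in WT and 150.39, 74.1 and 95.6 in Mtg16-/- libraries. As a ratio, the gap between the lowest WT and the highest Mtg16-/- library was wider than for any other gene of the 10. The mean was 537 ± 351 in WT and 107 ± 39.3 in Mtg16-/- (SD, n = 3 each), with a log2 fold change of -2.20 (SE 0.43, limma adjusted p = 0.171). Without WT replicate 1 the value was -1.70 at a limma adjusted p of 0.0999, just under the threshold. The annotation has a second gene over Apoc2, Gm44805, which was listed at 0 in all 6 libraries, so how reads were shared between them is uncertain.

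Apob, on chromosome 12 from 7977629 to 8016839, encodes the protein around which the chylomicron is built. Its TPM was 825, 253 and 302 in WT and 293, 239.95 and 102 in Mtg16-/- libraries. Only Mtg16-/- replicate 3 stood well below the WT libraries, and the groups overlapped. The mean was 459.7 ± 317 in WT and 212 ± 98.5 in Mtg16-/- (SD, n = 3 each), with a log2 fold change of -1.04 (SE 0.51, limma adjusted p = 0.386). It was -0.52 without WT replicate 1.

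Mttp, whose product transfers triglyceride to apolipoprotein B, lies on chromosome 3 from 138089855 to 138143418. Its TPM was 1114, 436 and 559 in WT and 425, 263 and 225 in Mtg16-/- libraries. The groups did not overlap, with Mtg16-/- replicate 1 only slightly below WT replicate 2. The mean was 703 ± 361 in WT and 304 ± 106 in Mtg16-/- (SD, n = 3 each), with a log2 fold change of -1.14 (SE 0.37, limma adjusted p = 0.279), and -0.75 without WT replicate 1.

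Fabp1, on chromosome 6 from 71199879 to 71205034, encodes the liver-type fatty acid-binding protein, which the proximal intestine also makes in large amounts. Its TPM was 5065, 1642 and 2061 in WT and 996, 411 and 659.98 in Mtg16-/- libraries. All Mtg16-/- libraries were below all WT libraries. The log2 fold change was -1.99 (SE 0.46, limma adjusted p = 0.225), and -1.51 without WT replicate 1. By mean level Fabp1 stood at rank 22 of the tested genes in WT and 217 in Mtg16-/-.

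Fabp2, on chromosome 3 from 122895072 to 122899506, encodes the intestinal fatty acid-binding protein, the second such protein of the enterocyte. Its TPM was 5681, 1807 and 2365 in WT and 2321, 1589 and 1453 in Mtg16-/- libraries. The groups overlapped, with Mtg16-/- replicate 1 close to WT replicate 3. The log2 fold change was -0.73 (SE 0.42, limma adjusted p = 0.436), with a 95% interval from -1.69 to 0.23, and was -0.24 without WT replicate 1.

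Cd36 encodes a receptor for long-chain fatty acids at the cell surface, and lies on chromosome 5 from 17781690 to 17888959. It was by far the lowest of the 10 genes, with a TPM of 15.9, 3.16 and 6.04 in WT and 6.76, 4.98 and 5.45 in Mtg16-/- libraries. The Mtg16-/- values lay within the WT range. The log2 fold change was -0.24 (SE 0.45, limma adjusted p = 0.821), with a 95% interval from -1.28 to 0.79. Without WT replicate 1 its sign turned, to 0.31 (limma adjusted p = 0.667).

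Dgat1, on chromosome 15 from 76502012 to 76512021, encodes an acyltransferase for the last step of triglyceride synthesis. Its TPM was 531, 286 and 325 in WT and 347.5, 246 and 234 in Mtg16-/- libraries. The groups overlapped, with Mtg16-/- replicate 1 above 2 of the 3 WT libraries. The log2 fold change was -0.43 (SE 0.26, limma adjusted p = 0.448), with a 95% interval from -1.03 to 0.16, and was -0.17 without WT replicate 1.

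**Figure D2:**
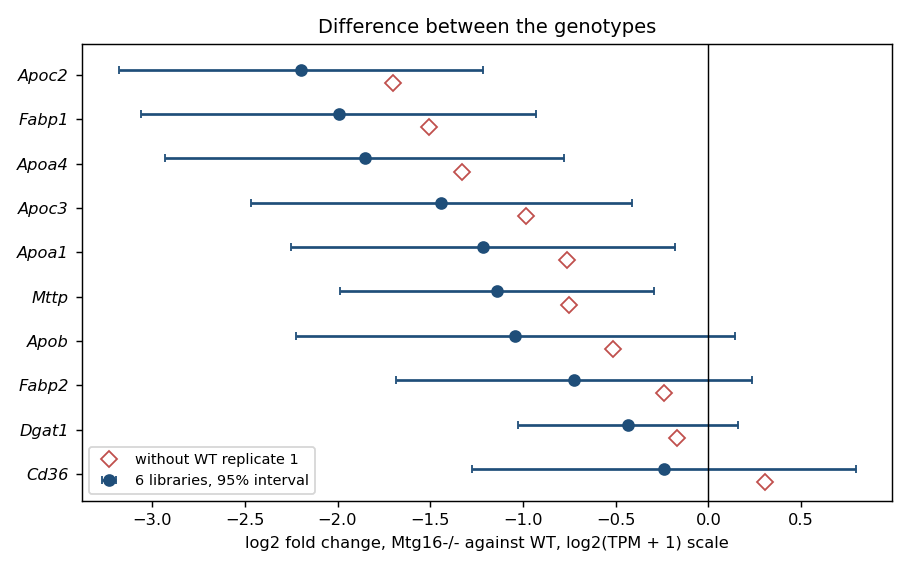
Log2 fold change of Mtg16-/- against WT on the log2(TPM + 1) scale (horizontal axis) for each of the 10 lipid genes, where filled points with bars are the 6-library values with their unadjusted 95% intervals and open diamonds are the values without WT replicate 1. Apoc2 is lowest at -2.20, every diamond lies to the right of its filled point, and the diamond of Cd36 lies at 0.31.

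Ranked by mean TPM, the order in WT was Apoa1, Fabp2, Apoa4, Fabp1, Mttp, Apoc2, Apoc3, Apob, Dgat1 and Cd36. The first 5 and the last kept these places in Mtg16-/-, where the others ran Dgat1, Apob, Apoc3 and Apoc2. Apoc2 thus stood sixth in WT and ninth in Mtg16-/- crypts. Compared within libraries, the order of neighbours held in every WT library for 5 of 9 pairs and in every Mtg16-/- library for 6 of 9. Over the libraries of a group, the ranges of most neighbours overlapped. In WT, the ranges of TPM were separate for 2 of 9 neighbouring pairs, Fabp1 above Mttp and Dgat1 above Cd36. In Mtg16-/-, they were separate for 2 of 9, Fabp2 above Apoa4 and Apoc2 above Cd36.

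Added together, the 10 genes made up 3.00, 1.00 and 1.25% of all TPM in WT and 0.947, 0.538 and 0.509% in Mtg16-/- libraries. Their summed TPM was 29991, 10019 and 12505 in WT and 9470.24, 5375 and 5086 in Mtg16-/-. Apoa1 and Fabp2 were the largest parts of the sum by mean level in both genotypes. On the log2 scale the mean sums differed by -1.29 with no overlap (two-sided exact permutation test, p = 0.1, the smallest that 3 against 3 can give). The 10 genes were chosen with earlier results of these data known, so this test is not independent of that choice. Leaving out each library in turn gave -1.60 to -0.81, with -0.81 without WT replicate 1.

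Ratios of 2 genes within a library do not depend on how that library was scaled, and 7 were compared by two-sided exact permutation tests, which cannot go below p = 0.1 and gave adjusted values of 0.14 at the lowest. The genes were chosen with earlier results of these data known, so these tests are not independent of that choice. Several ratios share a gene and rest on the same values as the single-gene differences, so they are not separate evidence. For Fabp1 to Fabp2, both fatty acid-binding proteins of the enterocyte, the ratio was 0.892, 0.909 and 0.871 in WT and 0.429, 0.259 and 0.454 in Mtg16-/- libraries. The WT libraries lay close together in this ratio, WT replicate 1 included, and all 3 Mtg16-/- libraries were lower (log2 difference -1.27, exact permutation p = 0.1, adjusted 0.14). For Apoa4 to Apoa1, genes of one cluster, the ratio was 0.593, 0.472 and 0.556 in WT and 0.327, 0.325 and 0.387 in Mtg16-/- libraries, again with no overlap (log2 difference -0.64, exact permutation p = 0.1, adjusted 0.14). Apoa4 was thus lower beside Apoa1 in every Mtg16-/- library.

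The ratio of Apoc2 to Apoa1 was 0.0999, 0.0955 and 0.0868 in WT and 0.0427, 0.0402 and 0.0609 in Mtg16-/- libraries (log2 difference -0.99, exact permutation p = 0.1, adjusted 0.14). In contrast, the ratio of Apoc3 to Apoa1, its neighbour on chromosome 9, overlapped, at 0.0837, 0.0775 and 0.0892 in WT and 0.0730, 0.0575 and 0.0853 in Mtg16-/- (log2 difference -0.23, exact permutation p = 0.3, adjusted 0.35). Mttp to Apob, the transfer protein against its acceptor, also overlapped, at 1.35, 1.72 and 1.85 in WT and 1.45, 1.10 and 2.20 in Mtg16-/- (log2 difference -0.10, exact permutation p = 0.9, adjusted 0.9). That difference turned to 0.14 without Mtg16-/- replicate 2.

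Dgat1 and Cd36, which act in esterification and uptake, had higher ratios to their partners in every Mtg16-/- library than in any WT library. The ratio of Dgat1 to Mttp was 0.477, 0.655 and 0.582 in WT and 0.817, 0.933 and 1.04 in Mtg16-/- libraries (log2 difference 0.71, exact permutation p = 0.1, adjusted 0.14). The ratio of Cd36 to Fabp1 was 0.00313, 0.00192 and 0.00293 in WT and 0.00679, 0.0121 and 0.00826 in Mtg16-/- libraries (log2 difference 1.75, exact permutation p = 0.1, adjusted 0.14). Both denominators, Mttp and Fabp1, were lower in Mtg16-/- libraries.

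**Figure D3:**
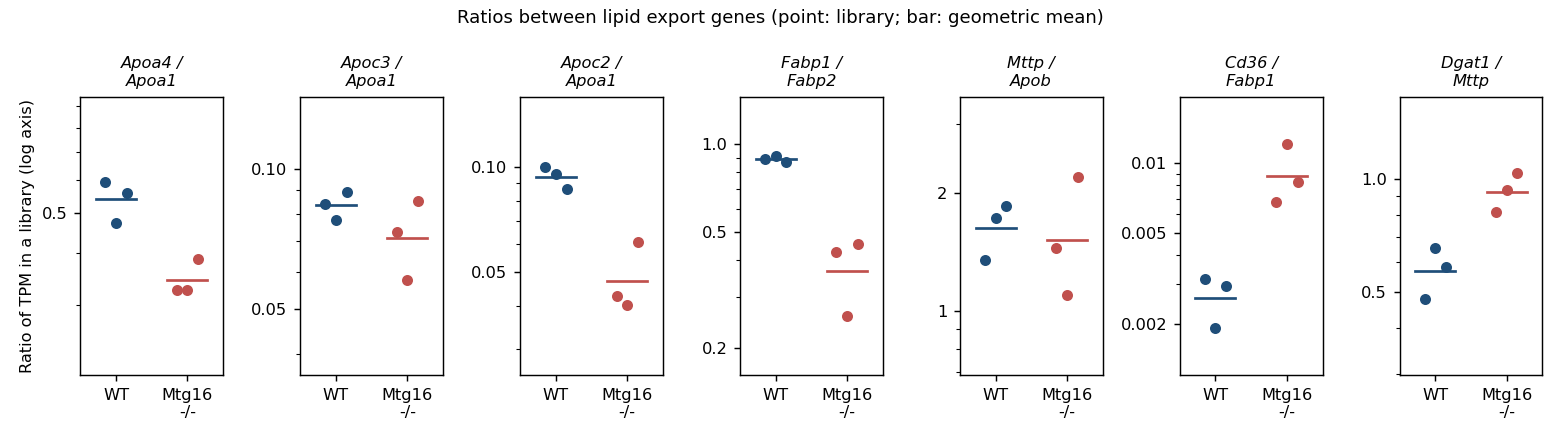
Ratio of the TPM of 2 lipid genes within each library (vertical log axes, a separate range per ratio) in WT (blue) and Mtg16-/- (red), where each point is a library and the bar is the geometric mean. The groups are apart for 5 of the 7 ratios and overlap for Apoc3 to Apoa1 and Mttp to Apob, and the 3 WT points of Fabp1 to Fabp2 lie between 0.871 and 0.909.

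The lipid genes were also set against 28 enterocyte genes outside lipid handling, such as the aminopeptidase gene Anpep and the brush border gene Vil1. Of these 28, 27 were lower in Mtg16-/- and none was called, with a median log2 fold change of -0.81. Lower groups without overlap were found for 4, beside 11.1% of all tested genes, and higher groups without overlap for 1, beside 9.94%. Their median was -0.44 without WT replicate 1. Anpep had a log2 fold change of -0.99 and Vil1 of -0.70 (limma adjusted p = 0.343 and 0.362). The lowest of the 28 was Slc2a2, at -1.52, and the gene that was not lower was Fbp1, at 0.72.

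The difference between the 2 sets was taken in each library, as the mean deviation of the 10 lipid genes from their means over the 6 libraries minus that of the 28 enterocyte genes. It was 0.34, 0.09 and 0.25 in WT and -0.26, -0.34 and -0.08 in Mtg16-/- libraries. Since each gene is centred on its own mean, only the gap between the groups carries information, and every Mtg16-/- value was below every WT value. The group means differed by -0.45 (two-sided exact permutation test, p = 0.1, the smallest possible), and by -0.53 to -0.40 when each library was left out. Both lists were chosen with earlier results of these data known, so the test is not independent of that choice. WT replicate 1, far from the other WT libraries in the level of both sets, was not far from WT replicate 3 in this difference.

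Taken one at a time against the same 28 genes, 6 of the 10 lipid genes were further below them in every Mtg16-/- library than in any WT library, namely Apoc2, Fabp1, Apoa4, Apoc3, Apoa1 and Mttp, by -1.42, -1.22, -1.08, -0.67, -0.44 and -0.37 on the log2 scale. The groups overlapped for Apob, Fabp2, Dgat1 and Cd36, with differences of -0.27, 0.05, 0.34 and 0.53. These values per gene are a description without a test. The share of all tested genes that lie apart on this measure was not computed, so the 6 of 10 stands without a background.

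**Figure D4:**
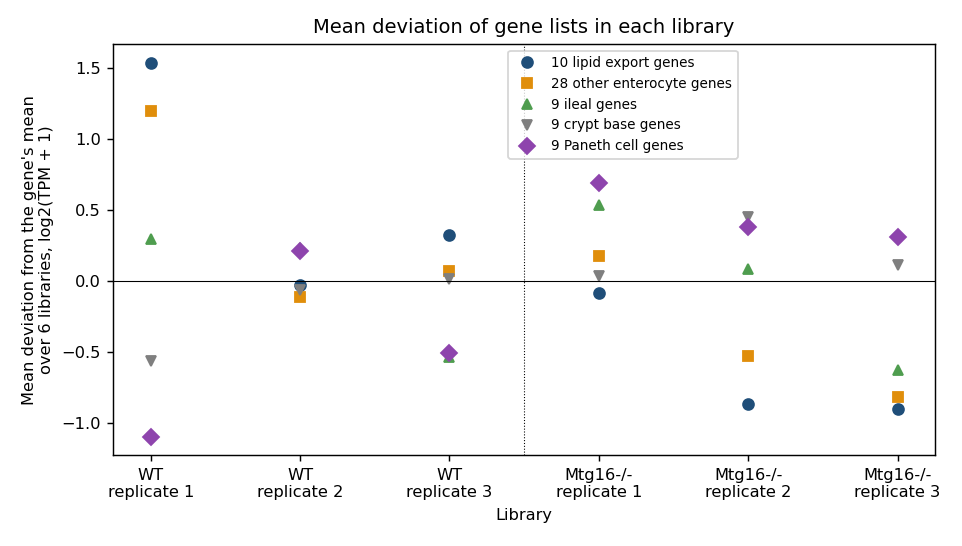
Mean deviation of 5 gene lists from each gene's mean over the 6 libraries, on the log2(TPM + 1) scale (vertical axis), in each library (horizontal axis), where each point is 1 list in 1 library. In WT replicate 1 the lipid genes are at 1.54, the other enterocyte genes at 1.20 and the Paneth cell genes at -1.09, and the lipid points lie above the enterocyte points in the WT libraries and below them in the Mtg16-/- libraries, as deviations and not as levels.

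Genes known from particular gut regions and other cells were measured beside the lipid genes, and none of them was called. Of 11 genes of the proximal gut, where most fat is absorbed, 11 were lower in Mtg16-/- (median log2 fold change -1.11, 6 without overlap, 0 called), and their summed TPM was 2796 to 8188 in WT and 1162 to 2241 in Mtg16-/-. When WT replicate 1 was left out, 9 of the 11 were lower, with a median of -0.68. They included the vitamin A-binding gene Rbp2, the glucose transporter gene Slc5a1 and the alcohol dehydrogenase gene Adh6a, and some of the 11 also belong to the enterocyte or lipid lists. Of 9 genes of the ileum, 6 were lower and 3 higher (median -0.12, 0 called), with a summed TPM of 1125 to 2493 in WT and 1181 to 2707 in Mtg16-/-. The sign of the ileal median rested on WT replicate 1, without which 4 of the 9 were lower and the median was 0.05. Of 9 Paneth cell genes, 9 were higher (median 1.03, 6 without overlap, 0 called), with a summed TPM of 10386 to 24727 in WT and 29759 to 38808 in Mtg16-/-. Their median was 0.69 without WT replicate 1, with 2 of the 9 lower. The 3 with the highest level were the defensin genes Defa24 and Defa17 and the lysozyme gene Lyz1, with log2 fold changes of 1.08, 1.03 and 0.92. Of 9 crypt base genes, 8 were higher (median 0.32, 4 without overlap, 0 called). Their sums were 1213 to 1925 in WT and 1951 to 2518 in Mtg16-/-. Without WT replicate 1 the crypt base median was 0.11, with 2 of the 9 lower. Among all tested genes, 11.1% were lower and 9.94% higher without overlap. The part of these differences in the values of the lipid genes was not tested, and the region of gut that each library holds and the genotype cannot be told apart.

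The summed TPM of 8 epithelial genes was alike in both groups, at 10079 to 11159 in WT and 9788 to 11068 in Mtg16-/-. Krt19, Krt8 and Epcam were among the 8. Singly, 4 were lower and 4 higher (median -0.01, or 0.03 without WT replicate 1, 0 called). They ran from Vil1 at -0.70 to Cdx2 at 0.45. Higher groups without overlap were found for 2 of the 8, beside 9.94% of all tested genes. Epcam, the defining surface protein of gut epithelium, had a mean TPM of 1189 ± 161 in WT and 1128 ± 56.1 in Mtg16-/- (SD, n = 3 each). Liver and fat cells also express several of the lipid genes. In the adipocyte list, 5 of 8 markers were at 0 in all libraries, Adipoq, Plin1, Cfd, Lep and Retn, and the fatty acid-binding gene Fabp4 was at 0.58 TPM or lower. The 2 that were tested, Cidec and Pck1, are also enterocyte genes. In the liver list, 5 of 13 genes were tested and all 5 were higher in Mtg16-/- (median 0.51, or 0.46 without WT replicate 1, 0 called). They ran from 0.20 to 1.82, and 2 were higher without overlap, beside 9.94% of all tested genes. The defining liver gene Alb was at 0.44 TPM or lower. Cps1 was by far the highest of the list, with a mean TPM of 694 in WT and 828 in Mtg16-/-. Whether other tissues contributed to the lipid genes was not tested. Endothelial, macrophage and stromal lists had sums of 6.31 to 8.96, 26.8 to 41.5 and 3.00 to 6.05 TPM in WT and 5.97 to 8.59, 27.0 to 35.3 and 5.50 to 7.46 in Mtg16-/-. Of 9 other immune genes, 9 were lower (median -0.50, or -0.32 without WT replicate 1, 0 called), with sums of 73.8 to 144 and 35.8 to 98.9, and Cd3g, Cd3e and Cd8a were highest in WT replicate 1, as the lipid genes were. The part of the immune genes in that library was not tested.

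Outside the 10 genes, 99 tested genes of 7 lists around lipid handling were described by counts. Of these, 74 were lower and 25 higher in Mtg16-/-, 0 were called, 32 were lower and 6 higher without overlap, and the median log2 fold change was -0.33. Of all tested genes, 53.6% were lower, and 11.1% were lower and 9.94% higher without overlap. The median was -0.15 without WT replicate 1.

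Of 22 genes for chylomicron assembly and its transport from the endoplasmic reticulum, 21 were lower (median -0.39, or -0.27 without WT replicate 1, 0 called). Lower groups without overlap were found for 9, beside 11.1% of all tested genes. The lowest was Cidec, a lipid droplet protein gene, with a TPM of 54.6, 19.9 and 29.0 in WT and 12.0, 6.86 and 5.83 in Mtg16-/- libraries (log2 fold change -1.88, SE 0.37, limma adjusted p = 0.171). Its groups did not overlap. Sec24d, a coat protein gene of transport vesicles, was at -1.05 without overlap, while Cideb and Tm6sf2, both linked to the loading of lipoproteins with lipid, were at -0.72 and -0.70 (limma adjusted p = 0.263, 0.339 and 0.325). Without WT replicate 1 the values were -1.49 for Cidec, -0.70 for Sec24d, -0.41 for Cideb and -0.42 for Tm6sf2.

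Of 16 genes for triglyceride and phospholipid synthesis, 11 were lower (median -0.50, or -0.28 without WT replicate 1, 0 called). Lower groups without overlap were found for 5, beside 11.1% of all tested genes. Dgat2, which encodes a second enzyme for the step of Dgat1, had a TPM of 261, 85.1 and 116 in WT and 64.7, 48.4 and 43.7 in Mtg16-/- libraries (log2 fold change -1.40, SE 0.37, limma adjusted p = 0.259). The Dgat2 groups did not overlap, where those of Dgat1 did. Mogat2, the monoglyceride acyltransferase gene of the enterocyte, was at -1.04 without overlap, and Gpat3 and the cholesterol acyltransferase gene Soat2 were at -0.86 and -0.67 with overlap (limma adjusted p = 0.284, 0.306 and 0.434). Leaving out WT replicate 1 gave -0.94 for Dgat2, -0.68 for Mogat2, -0.51 for Gpat3 and -0.32 for Soat2.

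Of 15 genes of fatty acid and sterol uptake, 9 were lower, 4 of them without overlap, and 1 was higher without overlap. Their median was -0.23, or -0.05 without WT replicate 1, and 0 were called. Among all tested genes, 11.1% were lower and 9.94% higher without overlap. Acsl5, which activates fatty acids, was at -1.18, the fatty acid transport gene Slc27a4 at -1.04, the cholesterol uptake gene Npc1l1 at -0.87 and the sterol exporter gene Abcg8 at -0.38 (limma adjusted p = 0.263, 0.305, 0.364 and 0.596). Only Acsl5 among these 4 had groups without overlap. With WT replicate 1 left out, they were at -0.79, -0.66, -0.50 and -0.05, so the value of Abcg8 rested on that library.

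Of 6 other lipid-binding proteins, 4 were lower (median -0.21, or -0.11 without WT replicate 1, 0 called). Lower groups without overlap were found for 2, beside 11.1% of all tested genes. Rbp2, which binds retinol in enterocytes, had a TPM of 4779, 1543 and 1975 in WT and 903, 422 and 534 in Mtg16-/- libraries, a pattern close to that of Fabp1 (log2 fold change -2.05, SE 0.44, limma adjusted p = 0.219). Fabp6, the ileal bile acid-binding protein of the same family as Fabp1 and Fabp2, had a TPM of 1168, 1926 and 735 in WT and 2056, 1880.41 and 869 in Mtg16-/- libraries. Its groups overlapped, and its log2 fold change was 0.34 (SE 0.42, limma adjusted p = 0.720). Scp2 and Dbi, carriers of sterols and of acyl-CoA, were at -0.39 and -0.27 (limma adjusted p = 0.455 and 0.517), and at -0.13 and -0.14 without WT replicate 1.

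Of 5 other apolipoprotein genes and their partners that were tested, 3 were lower (median -0.22, or -0.34 without WT replicate 1, 0 called). Lower groups without overlap were found for 1, beside 11.1% of all tested genes. Apobec1, which encodes the enzyme that edits Apob RNA, had a TPM of 23.7 ± 10.6 in WT and 11.8 ± 3.02 in Mtg16-/- (SD, n = 3 each), with no overlap (log2 fold change -0.89, or -0.56 without WT replicate 1, limma adjusted p = 0.284). Apoe was at -0.22 (limma adjusted p = 0.593), and at -0.34 without that library. Of 10 genes of lipid droplets and lipolysis, 8 were lower, 3 of them without overlap, and 1 was higher without overlap. Their median was -0.18, or -0.15 without WT replicate 1, and 0 were called. Among all tested genes, 11.1% were lower and 9.94% higher without overlap. The lysosomal lipase gene Lipa was at -1.25 and the droplet coat gene Plin3 at -0.72, both without overlap, with Lipe at -0.70 and Plin2 at -0.21 (limma adjusted p = 0.272, 0.282, 0.363 and 0.449). These 4 were at -0.78, -0.45, -0.38 and -0.16 without WT replicate 1.

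Of 25 regulators of these genes, 18 were lower, 8 without overlap, and 4 were higher without overlap (median -0.28, or -0.13 without WT replicate 1, 0 called). Among all tested genes, 11.1% were lower and 9.94% higher without overlap. Creb3l3, a transcription factor of lipid metabolism in liver and gut, had a TPM of 208, 76.8 and 105 in WT and 75.5, 48.6 and 37.8 in Mtg16-/- libraries, without overlap (log2 fold change -1.19, SE 0.38, limma adjusted p = 0.279). Prdm16 was at -0.74 and Nr1h3, the liver X receptor alpha gene, at -0.52, both without overlap, and Ppargc1a was at -0.57 with overlap (limma adjusted p = 0.225, 0.284 and 0.476). Without WT replicate 1, Creb3l3 was at -0.79, Prdm16 at -0.75, Nr1h3 at -0.39 and Ppargc1a at -0.20. Prdm16 differed from the lipid genes in that its highest library was WT replicate 3, at 17.0 TPM.

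**Figure D5:**
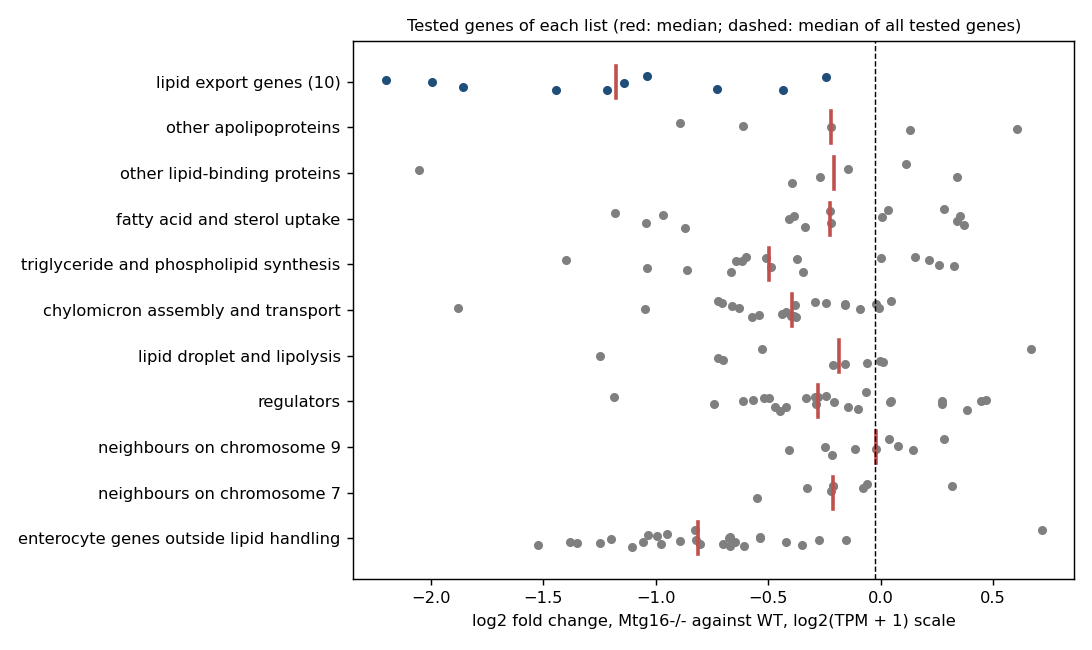
Log2 fold change of Mtg16-/- against WT on the log2(TPM + 1) scale (horizontal axis) for every tested gene (points) of each list (vertical axis), with the list's median in red and the median of all tested genes as a dashed line at -0.03. Of the 11 lists drawn, the 10 lipid genes have the lowest median, -1.18, the other enterocyte genes follow at -0.81, and the neighbours of the chromosome 9 cluster lie around the dashed line. The proximal gut genes, with a median of -1.11, close to that of the lipid genes, are not drawn.

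Apoa1, Apoc3 and Apoa4 lie within 14.8 kb of chromosome 9. Of 9 tested genes next to this cluster, 5 were lower and 4 higher, none without overlap and 0 called, with a median log2 fold change of -0.02 (-0.07 without WT replicate 1, where Zpr1 had lower groups without overlap). Among all tested genes, 11.1% were lower and 9.94% higher without overlap, and 16.9% were lower without overlap when WT replicate 1 was left out. Zpr1 was at -0.02, Bud13 at 0.04, Sik3 at -0.11, Pafah1b2 at 0.15, Sidt2 at -0.41, Pcsk7 at -0.25, Rnf214 at -0.22, Cep164 at 0.08 and Bace1 at 0.28. Values between -0.41 and 0.28 around the cluster stood beside -1.21, -1.44 and -1.85 for its 3 apolipoprotein genes. The fourth apolipoprotein gene of the region, Apoa5, was at 0.19 TPM in WT replicate 1 and listed at 0 in the other libraries, and Tagln was too low to be tested.

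Apoc2 lies at one end of the Apoe cluster on chromosome 7, which spans 29.7 kb. Of 8 tested genes there and next to it, 7 were lower and 1 higher, 1 without overlap and 0 called, with a median log2 fold change of -0.21 (-0.14 without WT replicate 1). Among all tested genes, 11.1% were lower without overlap. Apoe was at -0.22, Tomm40 at -0.33, Nectin2 at -0.06, Clptm1 at -0.21, Relb at -0.08, Bcam at 0.32, Cblc at -0.21 and Bcl3 at -0.55, and Bcl3 was the gene without overlap. Apoc2 at -2.20 was thus below all 8 neighbours. Apoc1 was listed at 0 in all 6 libraries, and Apoc4 was at 0.48 TPM or lower.

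The genes whose pattern over the 6 libraries was most like the mean of the 10 lipid genes were found by the root mean square difference of their deviations, among 8522 other genes that averaged 10 TPM or more. The nearest were Gdpd2 at 0.0551, H2-Q1 at 0.0807, Flvcr1 at 0.0860, Spns2 at 0.0915 and Acsl5 at 0.0921, against a median of 0.820 for all of them. Gdpd2 had a TPM of 48.9, 14.9 and 20.6 in WT and 16.3, 8.24 and 7.90 in Mtg16-/- libraries, and so shared the high value of WT replicate 1. Of the 10 genes themselves, Mttp and Apoa1 were nearest to their mean, at 0.101 and 0.106, and Cd36 was farthest, at 0.541. H2-Q1 belongs to a family of closely similar genes, so its value is uncertain. This likeness is a description over 6 libraries.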

How the data were processed

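RNA sequencing data of intestinal crypts from 3 WT and 3 Mtg16-/- mice were used. The submitters' processing notes name cutadapt 1.9.1, STAR 2.5.2a, RSEM 1.3.0, DESeq2 1.12.3 and mm10. Per gene, the authors deposited TPM estimates from RSEM with 2 decimals, which hold no read numbers, so depth and counting error are unknown and no count test was run. Libraries were grouped by the labels' genotype.

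Values were transformed as log2(TPM + 1), and 12268 genes that averaged 1 TPM or more were tested with limma 3.58.1 (R 4.3.3; lmFit and eBayes with an intensity trend, no covariate, Benjamini-Hochberg adjustment over all of them, calls at an adjusted p under 0.1). Sums, ratios and list differences were compared by two-sided exact permutation tests (scipy 1.17.1). The script was tested on simulated data in which the spread of each gene was capped at the median over genes. That test therefore does not show how well changes are found in genes with a wider spread. p-values rest on the spread between libraries. With 1 library per mouse, differences between mice and between preparations cannot be told apart in it.

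The 10 genes and the lists were chosen with earlier results of these data known. Named besides the 10 are all measured cluster neighbours, the 4 genes of each lipid list with the largest change among those with a mean TPM of at least 10, the 5 genes most alike and up to 3 genes per cell type list by level; other genes were named after their values were seen, and 1 gene under this rule is not reported here. Positions and promoters came from RefSeq GRCm38.p6, where promoter windows of 8 of the 10 genes were found. The Apob and Cd36 windows do not end at the first base of the gene's span. Alternatives were a pseudocount of 0.1, quantile normalization, median-ratio rescaling, no filter, a filter at a mean TPM of 5, no trend, the replicate block, robust moderation, an adjusted p under 0.05 and each library left out.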

Additional observations from a re-analysis of the deposited data

How the results depend on the processing

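Over 140 recomputed log2 fold changes of the 10 lipid genes, 129 kept their direction and side of the threshold, 10 passed it and 1 reversed, which was Cd36 at 0.31 without WT replicate 1 (range -0.70 to 0.31 over single libraries left out). With each library left out, 0 to 1 of the 10 were called (only Apoc2, without WT replicate 1), and 5 to 9 were lower without overlap, with 8 without WT replicate 2 and 9 without Mtg16-/- replicate 1, where 19.5% and 20.5% of all tested genes were. The ratio of Mttp to Apob reversed without Mtg16-/- replicate 2, to a log2 difference of 0.14 (range -0.37 to 0.14). The number of all genes called was 4, and 0 at an adjusted p under 0.05, 0 with no filter on low values, 15 at a mean TPM of at least 5, 0 with median-ratio rescaling, 1 with quantile normalization, 0 with no intensity trend and 20 with robust moderation. It was 0 to 40 when each library was left out (40 without WT replicate 1, 9 without WT replicate 3, 1, 2 and 0 without Mtg16-/- replicates 1, 2 and 3), and 3393 to 4749 genes did not overlap, against 2579 with all 6 libraries. The cause of these shifts was not tested. With the replicate number as a block, 9 of the 10 genes were called (limma adjusted p = 0.00437 to 0.0983, all but Cd36) among 1201 of all genes, 816 of them lower, which is 6.65% of those tested. In that fit, 24 of the 28 enterocyte genes outside lipid handling and 8 of the 11 proximal gut genes were called as well. Same-numbered WT and Mtg16-/- libraries had correlations of their deviations of 0.429, 0.0753 and 0.237, not all above 0.1. Not every library correlated best with its own number, and no source says that same-numbered mice were handled together, so the numbers were not taken to pair them. Unknown depth limits all low values, chiefly those of Cd36, and 3 mice against 3 keep every permutation p at 0.1 or above.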
